A study of Mus musculus with 36 samples.

Results

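The 8 genes described here were Irf1, Irf2, Irf3, Irf4, Irf5, Irf7, Irf8 and Irf9, which encode interferon regulatory factors, and they were taken by symbol from the 19879 genes counted in BV-2 cells. BV-2 is an immortalised mouse microglial line, labelled wild type, so all 36 libraries came from 1 line and no animal varied between them. RNA was sequenced in 12 groups of 3 libraries, at 4 h and at 24 h. The vehicle groups received DMSO or ethanol (EtOH) alone and were numbered 4 to 6. The other groups were numbered 1 to 3 and received lipopolysaccharide (LPS, a bacterial cell wall component that triggers Toll-like receptor 4 signalling) from E. coli 026:B6 at 600 ng/mL, alone or with 30 µM dimethyl fumarate (DMF), 30 µM monomethyl fumarate (MMF) or 6 µM cannabidiol (CBD). All cells had vehicle at 0.2% and serum lowered to 0.1% just before treatment; DMF and MMF were dissolved in DMSO and CBD in EtOH, and the labels do not say which vehicle the cells with LPS alone received. No drug was given without LPS, so a drug effect is an effect in LPS-treated cells.

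Interferon regulatory factors are transcription factors that share an N-terminal DNA-binding domain and recognise elements built around GAAA. In microglia and macrophages they carry the signal from pattern recognition receptors to the type I interferon genes and from the interferon receptor to interferon-stimulated genes. Irf3 is made constitutively and is switched on by phosphorylation through the kinases Tbk1 and Ikbke, whereas Irf7 is itself interferon-inducible and amplifies the response. Irf9 joins STAT proteins, Stat2 among them, in the complex ISGF3, which binds the interferon-stimulated response element (ISRE). Irf1 is an early inducible activator and Irf2 its partial antagonist at the same elements. Irf5 acts below Myd88 in cytokine induction, Irf8 works with Spi1 (PU.1) in setting the myeloid lineage, and Irf4 is best known from lymphocytes and alternatively activated macrophages.

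In the coordinates of the deposited tables (GRCm39), Irf1 lay at chr11:53660841-53669200, Irf2 at chr8:47192767-47300493, Irf3 at chr7:44647072-44652272, Irf4 at chr13:30933209-30950959, Irf5 at chr6:29526624-29541870, Irf8 at chr8:121463097-121483433 and Irf9 at chr14:55841028-55847487, all on the plus strand, and Irf7 at chr7:140842619-140846394 on the minus strand. All are protein-coding. Some of their exon bases were shared with other counted genes in the GENCODE annotation of that build. There were 145 such bases for Irf3 (Bcl2l12 and Scaf1, opposite strand), 416 for Irf5 (Tnpo3, opposite strand), 63 for Irf7 (Phrf1, opposite strand) and 282 for Irf9 (Rnf31, same strand). A further 2491 exon bases of Irf1 and 112 of Irf2 lie opposite non-coding or provisional gene models that are not among the counted genes. The strand setting of the counting is not given in the sources used here, so reads from these stretches cannot be assigned to a strand.

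The stretches of promoter shown here were chosen for their motif matches. They belong to 3 of the 5 members that were lower with DMF at 4 h (Irf1, Irf2 and Irf8; the others, Irf5 and Irf9, had no match) and to Irf7, the member with the highest level. They were read from GRCm39 upstream of the start of the canonical GENCODE transcript, 5′ to 3′ on the strand of the gene, and the capitals mark matches to a motif. The motifs searched were the ISRE core GAAANNGAA, the STAT-binding GAS element TTCNNNGAA, the NF-kB consensus, AP-1 TGANTCA and the antioxidant response element core TGACNNNGC, on both strands, in a window from 250 bases before to 50 bases after the start.
Irf1, chr11:53660721-53660840, plus strand (GAS, then NF-kB): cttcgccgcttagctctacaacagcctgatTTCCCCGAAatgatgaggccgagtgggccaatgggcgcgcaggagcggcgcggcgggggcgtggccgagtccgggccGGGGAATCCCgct
Irf2, chr8:47192510-47192594, plus strand (ISRE core, then GAS): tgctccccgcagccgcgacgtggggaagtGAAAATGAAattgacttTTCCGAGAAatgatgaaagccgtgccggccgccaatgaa
Irf8, chr8:121462896-121462982, plus strand (GAS, then GAS): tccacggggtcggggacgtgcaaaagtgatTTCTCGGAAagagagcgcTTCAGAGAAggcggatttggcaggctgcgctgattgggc
Irf7, chr7:140846544-140846612, minus strand (antioxidant response element core, reverse strand): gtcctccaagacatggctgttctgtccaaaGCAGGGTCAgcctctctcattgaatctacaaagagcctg

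A GAS match was present in 3 of the 8 member windows (Irf1, Irf2 and Irf8), against 8.81% of 21770 windows of protein-coding genes. The ISRE core was found in 1 (Irf2; 8.78% of all windows), the NF-kB consensus in 3 (Irf1, Irf2 and Irf3; 4.87%), the antioxidant response element core in 1 (Irf7; 12.5%) and AP-1 in 0 (7.14%). Irf4, Irf5 and Irf9 had no match to any of the 5 motifs in this window. These are matches of letters and not measured binding.

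Libraries held between 14110424 and 26676607 reads assigned to genes (median 16230584). The labelled cell type was checked against 13 microglial markers. Csf1r, Ptprc, Cd68, Spi1, Tyrobp, Itgam and Trem2 had medians from 74.5 to 661 rpm (reads scaled to the depth of the library), whereas C1qa had a median of 0 and P2ry12, Aif1, Tmem119 and Cx3cr1 medians of 2.59, 4.22, 4.60 and 10.5 rpm. Of the markers of other brain and blood cells, Gfap, Rbfox3, Cldn5, Ms4a1, Cd3e and Mog had medians of at most 0.498 rpm, and Mbp had a median of 65.3 rpm. Levels below are counts normalised over all 36 libraries by median-of-ratios size factors, in replicate order. Fold changes are on the scale of log2(normalised count + 1), each fitted with limma on the 6 libraries of its comparison (12 for a difference between times), and a gene is called when its Benjamini-Hochberg adjusted p is under 0.05. All 8 members passed the filter on low values in every comparison. Whether groups overlapped is described for the members only, without the share over all tested genes, and adds no support to a call.

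Irf7 had the highest transcript level and Irf4 the lowest. In RPKM (reads scaled to the merged exon length in kilobases and to library depth, mean of 36 libraries), Irf7 stood at 49.8, Irf3 at 14.5, Irf9 at 9.45, Irf5 at 7.06, Irf8 at 6.62, Irf2 at 4.85, Irf1 at 4.64 and Irf4 at 0.254. Neighbours in this order overlapped over libraries, with the exception of the last step: the lowest Irf1 library (2.36 RPKM) was above the highest Irf4 library (0.805 RPKM). The middle of the order depended on the exon model, since by canonical transcript length the sequence after Irf7 (78.5) and Irf3 (24.4) was Irf5 (23.1), Irf2 (21.6), Irf9 (19.7), Irf8 (12.7), Irf1 (10.2) and Irf4 (0.261). The members differed in how far they moved over the 12 groups. The highest group mean was 5.51 times the lowest for Irf7, 4.51 for Irf8, 4.25 for Irf4, 2.83 for Irf5, 2.39 for Irf9, 2.04 for Irf1, 2.01 for Irf2 and 1.23 for Irf3. The group with the lowest mean was LPS with DMF at 4 h for Irf1, Irf2, Irf3, Irf5 and Irf8, and CBD with LPS at 24 h had the highest mean for Irf4, Irf7 and Irf9.

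**Figure D1:**
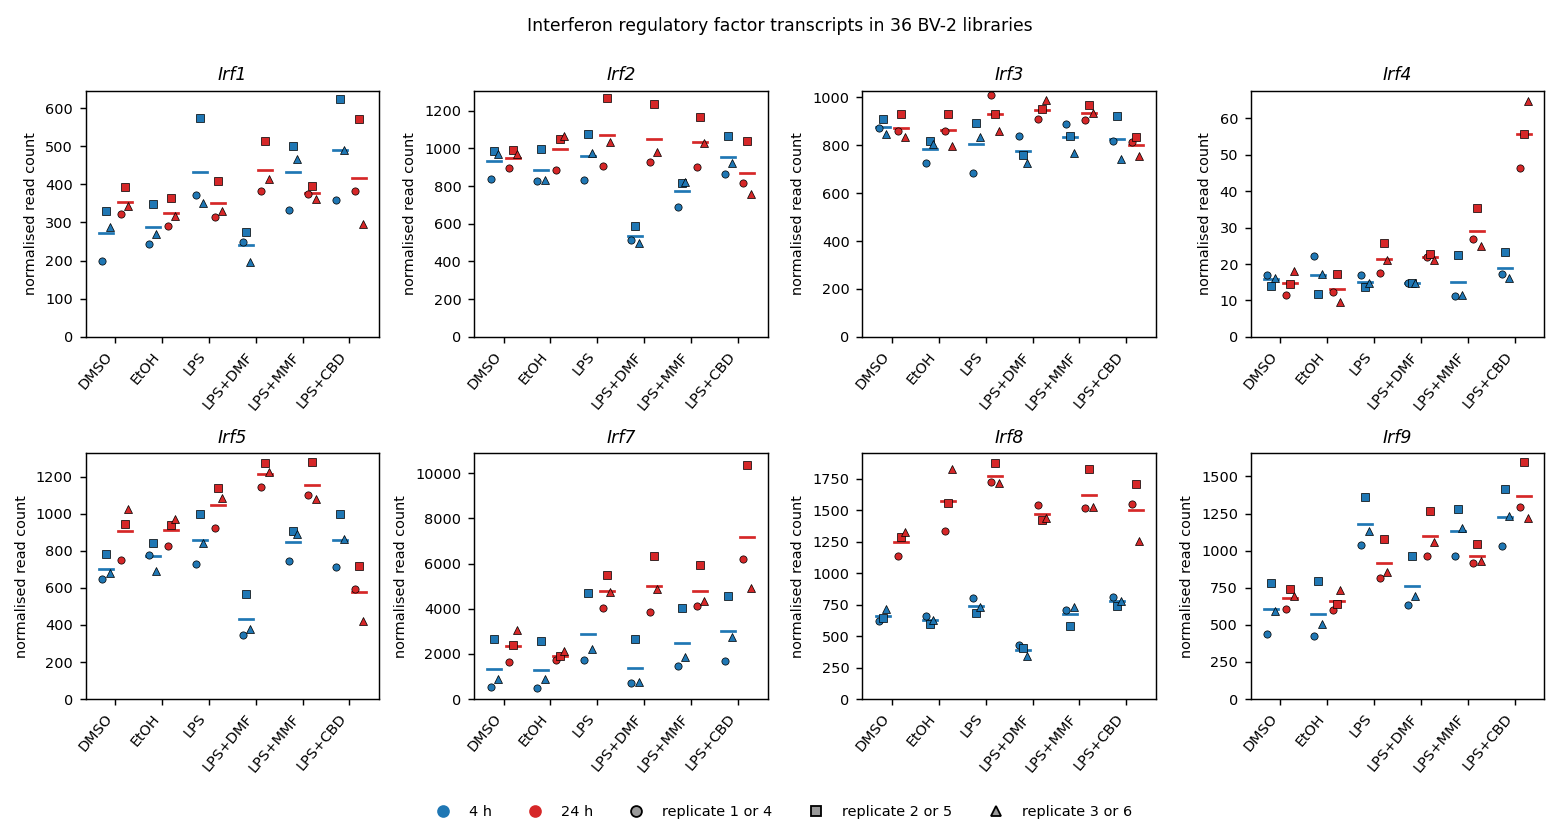
Normalised read count (linear axis from 0) of each member in every library, by treatment. Blue is 4 h, red is 24 h, the symbol gives the replicate number and the bar is the mean of the 3 libraries. Irf8 was higher at 24 h than at 4 h in each treatment, and Irf3 stayed between 685 and 1009. The square (replicate 2 or 5) was the highest Irf7 value of each treatment at 4 h.

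The first comparison was LPS against each vehicle, which asks how the family responds to microglial activation. The vehicle libraries and the libraries with LPS carried different replicate numbers. If these mark separate experiments, an LPS effect and a difference between experiments cannot be told apart. The same holds where a drug group is set against a vehicle. At 4 h Irf9 was the only member called against either vehicle. Irf9 stood at 1037, 1363 and 1131 normalised counts with LPS, at 441, 779 and 591 with DMSO and at 425, 794 and 503 with EtOH, so every LPS library was above every vehicle library. Its log2 fold change was 0.98 (SE 0.19, adjusted p = 0.012) against DMSO and 1.08 (SE 0.21, adjusted p = 0.017) against EtOH, with the same LPS libraries in both. That is 1 of 8 members higher in each comparison, where 7.7% of all tested genes were called higher against DMSO (14.1% in either direction) and 5.69% against EtOH (10.2% in either direction). The oligodendrocyte list, nearly all Mbp, summed to 60.7 to 64.3 rpm with LPS at 4 h, against 80.9 to 84.3 with DMSO and 82.4 to 88.5 with EtOH, and its part in these results was not tested. In a bulk sample a change in RNA per cell and a change in the share of cells that make the transcript cannot be told apart.

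Irf1 and Irf7 were higher on average at 4 h without passing the test. Irf1 stood at 371, 575 and 349.8 with LPS and 199.6, 329 and 288 with DMSO, which did not overlap, with a log2 difference of 0.65 (SE 0.23, adjusted p = 0.097). Against EtOH the groups overlapped, at 0.56 (SE 0.21, adjusted p = 0.13). Irf7 stood at 1715, 4697 and 2202 with LPS, 519.6, 2653 and 880.3 with DMSO and 471, 2566 and 866 with EtOH. The middle library of each group was far above the other two, so the groups overlapped although the log2 fold change was 1.28 (SE 0.56, adjusted p = 0.16) against DMSO and 1.36 (SE 0.58, adjusted p = 0.19) against EtOH. Left out singly, DMSO replicate 5 (log2 fold change 1.95, adjusted p = 0.027) and EtOH replicate 5 (log2 fold change 2.03, adjusted p = 0.026) brought Irf7 past the threshold and the count of called members to 2. The Irf9 call was lost against DMSO without DMSO replicate 6 (adjusted p = 0.055), and against EtOH without LPS replicate 3 (0.061) or EtOH replicate 4 (0.059) or 6 (0.078), which left 0 called members.

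At 24 h of LPS, Irf7 and Irf9 were higher than in both vehicles and Irf8 was higher than in DMSO. Irf7 stood at 4053, 5498 and 4749.9 with LPS, 1638, 2401 and 3054 with DMSO and 1718, 1899 and 2146 with EtOH, and the LPS libraries were all above the vehicle libraries. Its log2 fold change was 1.06 (SE 0.19, adjusted p = 0.0021) against DMSO and 1.32 (SE 0.12, adjusted p = 1.7e-05) against EtOH. Irf9 stood at 815, 1078 and 858 with LPS and 610.1, 740.3 and 694 with DMSO, with a log2 difference of 0.44 (SE 0.12, adjusted p = 0.021), and of 0.48 (SE 0.12, adjusted p = 0.014) against EtOH. Irf8 stood at 1728, 1877 and 1719.8 with LPS, 1139, 1287 and 1328 with DMSO and 1333, 1559.6 and 1831 with EtOH. It differed from DMSO by 0.52 (SE 0.08, adjusted p = 0.0011) but overlapped with EtOH, where the log2 fold change was 0.19 (SE 0.11, adjusted p = 0.24). The members called higher were thus 3 of 8 against DMSO (background 12.1% higher and 22.7% in either direction) and 2 of 8 against EtOH (10.8% higher and 20.5% in either direction). The Irf9 call was lost against DMSO without DMSO replicate 4 (adjusted p = 0.071) or 6 (0.062), and against EtOH without EtOH replicate 5 (0.053), which left 1 called member. The endothelial list summed to 7.29 to 9.14 rpm with LPS at 24 h, against 4.09 to 4.91 with DMSO and 4.75 to 6.97 with EtOH, and its part in these results was not tested.

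**Figure D2:**
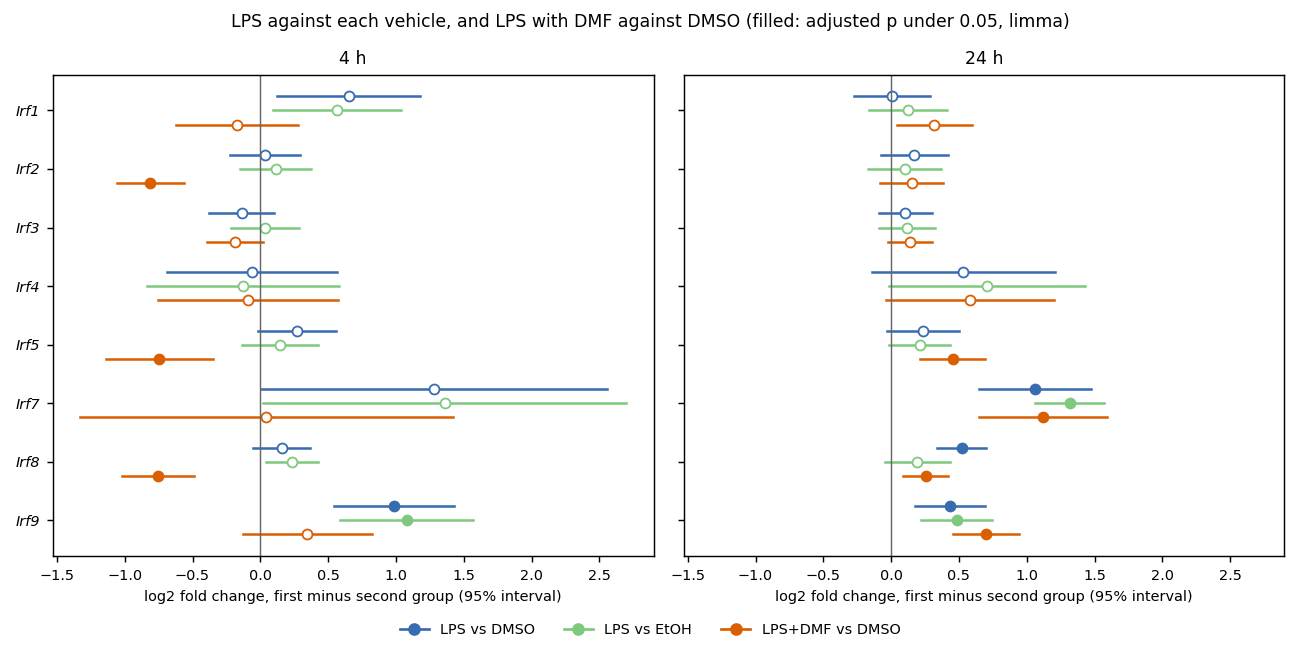
Log2 fold change of each member (x axis, first minus second group, with its 95% interval) for LPS against DMSO, LPS against EtOH and LPS with DMF against DMSO, at 4 h (left) and 24 h (right). Filled points passed the test. Irf9 was filled in both LPS comparisons at both times, and Irf2, Irf5 and Irf8 lay below DMSO in the cells with LPS and DMF at 4 h.

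Whether the LPS response of a member differed between 4 h and 24 h was tested as an interaction. With limma, 0 of 8 members differed against DMSO (9.46% of all tested genes did) and 0 of 8 against EtOH (9% did). At an unadjusted p under 0.05 the counts were 3 and 1, and edgeR and DESeq2 on the recovered reads gave 0 in both. The Irf9 response was 0.99 at 4 h and 0.42 at 24 h on the log2 scale against DMSO, a difference of -0.57 (SE 0.24, adjusted p = 0.16). Without DMSO replicate 5 of 4 h, the Irf9 difference passed the test (adjusted p = 0.036), as it did against EtOH without EtOH replicate 5 of 4 h (0.013).

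The other genes of the pathway were followed with LPS in lists of receptors and kinases upstream of the family (sensing), of interferon receptors and JAK-STAT components (signalling), of partners of the family, of interferon-stimulated genes bound by ISGF3 or by Irf3 and Irf7, and of genes often given as Irf1 targets. Against DMSO at 4 h, 16 of 23 tested interferon-stimulated genes were higher and 0 lower, with a median log2 fold change of 1.78, where 7.7% of all tested genes were higher and 6.38% lower. They were led by Mx1 at 3.50 (adjusted p = 0.0028), Cmpk2 at 3.46, Ifit1 at 3.24 and Ifit3 at 3.21. In the sensing list 9 of 20 were higher, among them the kinase Ikbke (2.17), the receptors Tlr9 (1.57) and Tlr2 (1.52) and the RNA sensor Ifih1 (1.42). In the signalling list 6 of 11 were higher, led by the feedback inhibitors Socs1 (2.43) and Usp18 (1.98) and including the Irf9 partner Stat2 (1.45). Of 10 tested partners 3 were higher and 2 lower: the ubiquitin ligase Trim21 (1.68), the Irf8 partner Spi1 (0.91) and Irf2bpl (0.51) rose, and Irf2bp2 (-0.41) was among those that fell. Of the Irf1 target list 7 of 14 were higher, led by Nos2 (4.64), Gbp2 (2.88), Ptgs2 (2.61) and Cd274 (1.17).

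At 24 h against DMSO all 23 tested interferon-stimulated genes were higher (12.1% of all tested genes were), with a median of 1.19, led by Cxcl10 (1.86), Mx1 (1.75), Isg15 (1.57) and Cmpk2 (1.56). Of the Irf1 target list 13 of 14 were higher, led by Nos2 (3.17), although Irf1 itself had a log2 difference of 0.00 (SE 0.13, adjusted p = 0.99). In the signalling list 9 of 11 were higher, with Socs1 at 1.83, Usp18 at 1.01 and Stat2 at 0.77. In the sensing list 7 of 20 were higher and 1 lower, with Ikbke at 2.34, and of 10 partners 1 was called, Spi1 at 0.59.

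Ifnb1, the interferon gene that Irf3 and Irf7 act on, was close to the detection limit. It had 0 to 1 reads per library in the vehicle groups at 4 h and 2 to 7 with LPS at 4 h. At 24 h it had 0 to 2 reads with DMSO, 0 to 3 with EtOH and 0 to 5 with LPS. Its highest values were 5 to 14 reads with LPS and DMF at 24 h and 9 to 16 with LPS and CBD at 24 h, so no fold change is given.

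The comparison of DMF with LPS alone at 4 h gave lower levels for 5 members. Irf1, Irf2, Irf5, Irf8 and Irf9 were all lower with LPS and DMF than with LPS alone, with fitted changes of -35.9% (Irf9) to -50.7% (Irf5), and in each of them the 3 DMF libraries lay below the 3 LPS libraries. Irf8, the myeloid lineage factor, stood at 433, 405 and 343 with DMF and 805, 684 and 728 with LPS alone, a log2 difference of -0.91 (SE 0.12, adjusted p = 0.0017). Irf5 stood at 344, 565 and 381 with DMF and 731, 998 and 842 with LPS alone (-1.02, SE 0.19, adjusted p = 0.0098). The highest DMF library of Irf5 was thus below the lowest LPS library. Irf2 stood at 513, 590.4 and 497 against 832, 1077 and 974 (-0.85, SE 0.12, adjusted p = 0.0028), and Irf1 at 248, 275 and 196 against 371, 575 and 349.8 (-0.83, SE 0.21, adjusted p = 0.033). Irf9 stood at 634, 961 and 696 against 1037, 1363 and 1131, with the smallest change of these 5 (-0.64, SE 0.17, adjusted p = 0.039). That is 5 of 8 members lower, where 6.51% of all tested genes were called lower and 11.1% in either direction; the median log2 fold change was -0.84 over the members and 0.01 over all tested genes.

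The remaining members at 4 h of DMF were Irf7, Irf3 and Irf4. Irf7 stood at 689, 2674 and 734 with DMF and 1715, 4697 and 2202 with LPS alone, so each DMF library was below the LPS library of its own number while the groups overlapped. Its log2 fold change was -1.24 (SE 0.52, adjusted p = 0.18), and a fit blocked on the replicate number gave an adjusted p of 0.00094 and 6 of 8 called members (15.1% of all tested genes). Irf3 stood at 838, 759.8 and 724 with DMF and 685, 891 and 835 with LPS alone (-0.05, SE 0.12, adjusted p = 0.84), with a 95% interval of -0.32 to 0.22. Irf4 had 13, 13 and 14 reads with DMF and 16, 13 and 14 with LPS alone, with a 95% interval of -0.69 to 0.62 on the log2 scale.

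Irf2 and Irf8 kept their call in the absence of any 1 library. Irf5 lost it without DMF replicate 3 (adjusted p = 0.052). Irf1 lost it without DMF replicate 1 (0.07) or 3 (0.14) or LPS replicate 1 (0.053) or 2 (0.06). Irf9 lost it without those same libraries and without LPS replicate 3 (adjusted p from 0.054 to 0.15), and Irf7 gained it without DMF replicate 2 (0.0076). The called members then numbered 2 without DMF replicate 3 and 3 without DMF replicate 1 or LPS replicate 1 or 2. The summed level of the 13 microglial markers was 1641 to 1883 rpm with DMF at 4 h and 2240 to 2508 rpm with LPS alone, and the oligodendrocyte list, nearly all Mbp with a median of 0 for Mog, was at 45.3 to 59.3 against 60.7 to 64.3 rpm. Their part in these results was not tested.

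**Figure D3:**
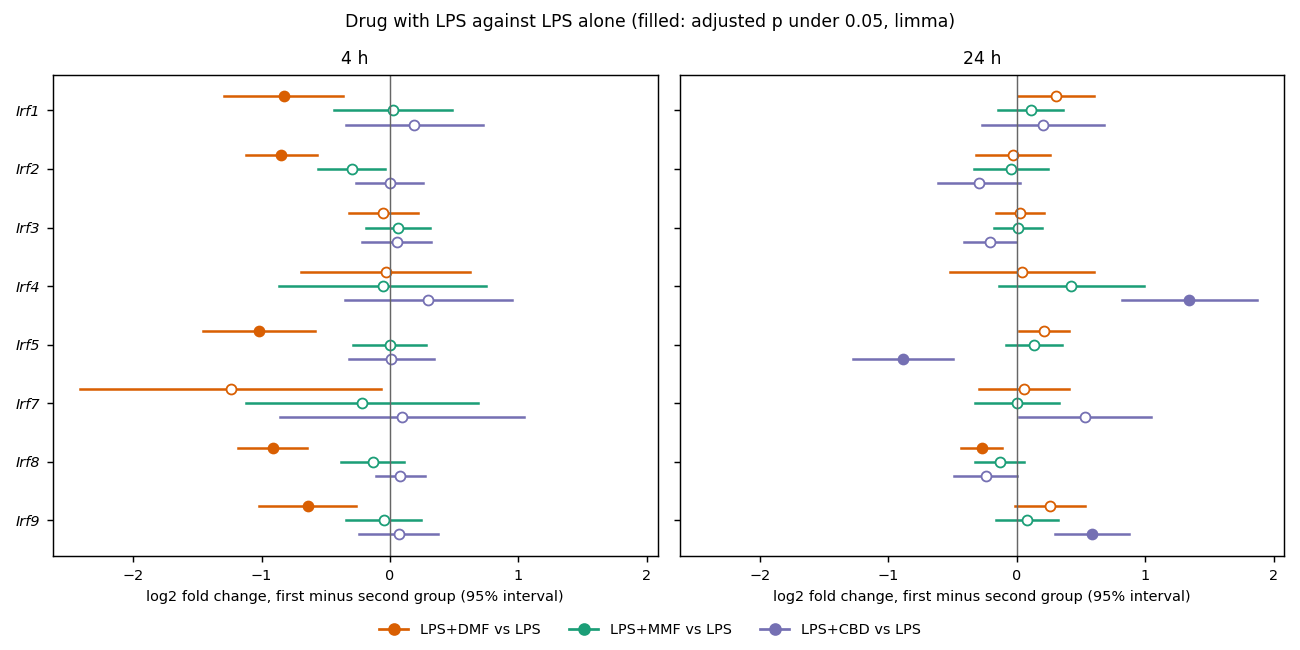
Log2 fold change of each member (x axis, drug with LPS minus LPS alone, with its 95% interval) for DMF, MMF and CBD at 4 h (left) and 24 h (right). Filled points passed the test. Irf1, Irf2, Irf5, Irf8 and Irf9 were filled for DMF at 4 h, Irf8 for DMF at 24 h, and Irf4, Irf5 and Irf9 for CBD at 24 h.

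The DMF values of Irf2, Irf5 and Irf8 at 4 h were also below those of unstimulated cells. With DMSO alone Irf2 stood at 837, 988 and 969, Irf5 at 648, 781 and 682 and Irf8 at 618, 648 and 715, all above the DMF libraries given above. The log2 fold changes of LPS with DMF against DMSO were -0.81 (SE 0.11, adjusted p = 0.00088) for Irf2, -0.75 (SE 0.18, adjusted p = 0.014) for Irf5 and -0.76 (SE 0.12, adjusted p = 0.0018) for Irf8. That is 3 of 8 members lower, where 12.1% of all tested genes were called lower and 23.5% in either direction. These 3 were not called with LPS alone at 4 h, when Irf2 differed from DMSO by 0.04. Irf1, Irf7 and Irf9 with DMF overlapped with DMSO, at log2 fold changes of -0.17, 0.04 and 0.35. The Irf5 call was lost without DMF replicate 3 (adjusted p = 0.058).

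Around the family, DMF at 4 h lowered members of every list. Of 23 tested interferon-stimulated genes 19 were lower than with LPS alone and 0 higher (6.51% and 4.55% of all tested genes), with a median of -1.89 and Mx1 at -3.20 (adjusted p = 0.00037), Ifit3 at -3.00, Ddx60 at -2.99 and Ifit1 at -2.90. In the sensing list 10 of 20 were lower, led by the RNA sensors Tlr3 (-2.18), Ifih1 (-2.09) and Rigi (-1.76) and the kinase Ikbke (-1.87). In the signalling list 5 of 11 were lower, among them Usp18 (-2.57), Socs1 (-1.28) and Stat2 (-1.15). The 4 of 10 partners that fell were Trim21 (-1.58), Spi1 (-0.79), Irf2bpl (-0.69) and Ikzf1 (-0.50). Of the Irf1 target list 7 of 14 were lower, with Nos2 at -3.81, Gbp2 at -2.72, Cd274 at -1.22 and Tap1 at -0.98, and Ptgs2 was higher (0.82).

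At 24 h of DMF, Irf8 was the only member called, at 1546, 1423 and 1443 with DMF and 1728, 1877 and 1719.8 with LPS alone (-0.27, SE 0.07, adjusted p = 0.021). It fell by 17.2%. That is 1 of 8, where 13.2% of all tested genes were called lower and 25.1% in either direction. Irf5 stood at 1147, 1274 and 1224 with DMF and 927, 1141 and 1085 with LPS alone, so the DMF libraries were now the higher ones (0.21, SE 0.09, adjusted p = 0.1). Irf1 (0.31) and Irf9 (0.26) also had positive values that did not pass the test. Blocked on the replicate number, 4 of 8 members were called (39.1% of all tested genes): Irf1 (adjusted p = 0.013), Irf5 (0.021) and Irf9 (0.0079) higher, and Irf8 (0.0064) lower. The same 4 were called without the block when LPS replicate 2 was left out (adjusted p of 0.035, 0.046, 0.026 and 0.038). The Irf8 call was lost, leaving 0, without DMF replicate 2 (0.083) or 3 (0.096) or LPS replicate 3 (0.055).

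The change of the DMF effect between 4 h and 24 h was itself tested. It passed for 5 of 8 members, all toward higher values at 24 h, where 8.45% of all tested genes moved that way and 16.3% in either direction. The difference in log2 fold change was 1.23 (SE 0.22, adjusted p = 0.0023) for Irf5, 1.13 (SE 0.26, adjusted p = 0.0095) for Irf1 and 0.90 (SE 0.22, adjusted p = 0.014) for Irf9, whose fitted effects went from negative to positive. For Irf2 it was 0.82 (SE 0.20, adjusted p = 0.011) and for Irf8 0.64 (SE 0.14, adjusted p = 0.0061), whose effects went toward 0. In the fit of all 6 libraries without the replicate block, the positive 24 h effects of Irf5, Irf1 and Irf9 were not called. Irf7 had a difference of 1.29 (SE 0.61, adjusted p = 0.16), and the replicate block called it (0.00016), bringing the members to 6 of 8 (24.2% of all tested genes), as did leaving out DMF replicate 2 of 4 h (0.0052). These 5 members kept their call in the absence of any 1 of the 12 libraries.

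The lists with DMF at 24 h are to be read against all tested genes, of which 11.9% were higher, 13.2% lower and 25.1% called in either direction. Of 23 interferon-stimulated genes 5 were higher and 0 lower, with Rsad2 at 1.09 (adjusted p = 0.0028), Isg15 at 0.99, Ifit1 at 0.82 and Oasl1 at 0.50. The sensing list had 4 of 20 higher: Tlr4 (0.77), Tlr3 (0.48), Tlr2 (0.40) and Irak4 (0.33). In signalling, Ifnar2 rose (0.41) and Jak2 fell (-0.40). Among partners Trim21 (0.47) and Ikzf1 (0.26) rose and Batf3 (-0.75) fell. The Irf1 target list had 2 of 14 higher, Ptgs2 (0.89) and Casp1 (0.62), and 3 lower, among them the immunoproteasome subunits Psmb9 (-0.43) and Psmb10 (-0.31).

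MMF is the monoester formed from DMF by hydrolysis, with a free carboxylic acid in place of a methyl ester, and it was given at the same 30 µM. No member was called for MMF against LPS alone. With limma the count was 0 of 8 at 4 h (0.122% of all tested genes called) and 0 of 8 at 24 h (0% called); 1 and 0 members had an unadjusted p under 0.05, and edgeR and DESeq2 gave 0 at both times. The one at 4 h was Irf2, at 689, 817 and 824 with MMF and 832, 1077 and 974 with LPS alone (-0.30, SE 0.12, adjusted p = 0.62), where the MMF libraries lay below the LPS libraries. Irf5 had a 95% interval of -0.29 to 0.28 on the log2 scale, Irf8 of -0.38 to 0.11, Irf9 of -0.34 to 0.24 and Irf7 of -1.12 to 0.69, so the data leave room for changes of those sizes. The MMF effect did not differ between the times for any member (0 of 8 with limma, edgeR and DESeq2, and 0 at an unadjusted p under 0.05; 0% of all tested genes). The median log2 fold change of the tested interferon-stimulated genes with MMF was -0.33 at 4 h and -0.08 at 24 h.

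Set directly against MMF at the same dose and at 4 h, DMF gave lower levels of Irf1, Irf2, Irf5 and Irf8, and in each of these the groups did not overlap. Irf5 stood at 344, 565 and 381 with DMF and 745, 906 and 892 with MMF (-1.01, SE 0.18, adjusted p = 0.0081), and Irf8 at 433, 405 and 343 against 705, 578 and 735 (-0.78, SE 0.13, adjusted p = 0.007). Irf1 differed by -0.85 (SE 0.18, adjusted p = 0.019) and Irf2 by -0.55 (SE 0.12, adjusted p = 0.018). That is 4 of 8 members lower, where 4.97% of all tested genes were called lower and 8.34% in either direction. Irf9 was at -0.59 (SE 0.16, adjusted p = 0.053) and Irf7 at -1.02 (SE 0.50, adjusted p = 0.24), with 95% intervals of -0.95 to -0.23 and -2.12 to 0.08. The microglial markers summed to 1641 to 1883 rpm with DMF and 2053 to 2214 rpm with MMF and the oligodendrocyte list to 45.3 to 59.3 and 60.8 to 67.8 rpm, and their part in these results was not tested. For Irf3 the interval was -0.34 to 0.12 and for Irf4 -0.79 to 0.84. Without DMF replicate 3 or MMF replicate 2 the called members were 2, since Irf1 and Irf2 lost their call (adjusted p from 0.072 to 0.09). Without MMF replicate 3 Irf8 alone was left, as Irf5 (0.051), Irf1 (0.093) and Irf2 (0.086) also lost it, and without DMF replicate 2 Irf7 (0.002) and Irf9 (0.0021) gained it.

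At 24 h the levels with DMF and MMF were not told apart by limma for any member. The count was 0 of 8, with 0 at an unadjusted p under 0.05 and 0 by edgeR and DESeq2, although 21.5% of all tested genes were called. The 95% intervals of the difference were -0.13 to 0.17 for Irf3, -0.10 to 0.26 for Irf5, -0.32 to 0.04 for Irf8 and -0.90 to 0.13 for Irf4, the widest. With the replicate block 1 of 8 was called (39.8% of all tested genes), Irf9 at 0.18 (adjusted p = 0.034).

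CBD was given at another dose (6 µM) and in another vehicle, so its values stand beside those of the fumarates without a test between them. At 4 h 0 of 8 members were called against LPS alone with limma (0.00875% of all tested genes), none had an unadjusted p under 0.05, and edgeR and DESeq2 gave 0. Irf5 with CBD at 4 h stood at 712, 1000.1 and 865, beside 731, 998 and 842 with LPS alone. Its 95% interval was -0.32 to 0.34 on the log2 scale.

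At 24 h of CBD, Irf4 and Irf9 were higher and Irf5 was lower than with LPS alone, and none of the 3 overlapped. Irf3 (-0.21, adjusted p = 0.08) and Irf8 (-0.24, adjusted p = 0.093) did not overlap either, lower with CBD but not called. Irf4, the member with the fewest reads, had 44, 60 and 76 reads with CBD and 16, 24 and 27 with LPS alone. In normalised counts this was 46.4, 55.7 and 64.7 against 17.6, 25.7 and 21, a log2 difference of 1.34 (SE 0.24, adjusted p = 0.0014), which understates the change of so low a gene. All other groups had Irf4 at 9.55 to 35.5 normalised counts. Irf5 stood at 595, 717 and 419.7 with CBD and 927, 1141 and 1085 with LPS alone (-0.89, SE 0.17, adjusted p = 0.0024). This was also below the EtOH vehicle, at 827, 938 and 974 (-0.69, SE 0.17, adjusted p = 0.0078). Irf9, the DNA-binding subunit of ISGF3, stood at 1292, 1597 and 1222 with CBD and 815, 1078 and 858 with LPS alone (0.58, SE 0.13, adjusted p = 0.0046). That is 2 of 8 members higher and 1 lower, where 23.9% of all tested genes were called higher, 24.8% lower and 48.7% in either direction, so the share of called members is below that of all genes.

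Irf7 had its highest group mean with CBD at 24 h, at 6184, 10391 and 4925, beside 4053, 5498 and 4749.9 with LPS alone. The lowest CBD library lay within the LPS range and the log2 fold change was 0.53 (SE 0.23, adjusted p = 0.083). Blocked on the replicate number, 7 of 8 members were called (56.7% of all tested genes). Those added were Irf7 higher (adjusted p = 0.0041) and Irf2 (-0.29, 0.0075), Irf3 (-0.21, 0.033) and Irf8 (-0.24, 0.019) lower, which left Irf1 not called (0.17). Irf4, Irf5 and Irf9 kept their call in the absence of any 1 library. Without CBD replicate 2 the count was 5, with Irf2 (0.022) and Irf8 (0.023) added, and without CBD replicate 3 Irf7 was added (0.019). The 13 microglial markers summed to 2220 to 2781 rpm with CBD at 24 h and 2199 to 2802 rpm with LPS alone. The 4 lymphocyte markers, of interest for Irf4, summed to 0.156 to 0.439 rpm with CBD and 0.124 to 0.366 rpm with LPS alone, with a median of 0 for Ms4a1. The oligodendrocyte list, nearly all Mbp, summed to 45.0 to 53.2 rpm against 67.1 to 83.7 rpm, and the endothelial list, with a median of 0 for Cldn5, to 3.22 to 4.27 against 7.29 to 9.14 rpm. Their part in these results was not tested.

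The change of the CBD effect between 4 h and 24 h passed the test for 2 of 8 members (32% of all tested genes). It was -0.89 (SE 0.25, adjusted p = 0.016) for Irf5 and 1.05 (SE 0.35, adjusted p = 0.033) for Irf4. The Irf4 difference lost its call without any of LPS replicate 1 or 3 or CBD replicate 1 or 3 of 4 h, or LPS replicate 1 or 3 or CBD replicate 2 or 3 of 24 h (adjusted p from 0.057 to 0.088). Irf9 (0.52, SE 0.20, adjusted p = 0.065) gained a call without LPS replicate 1 (0.048) or CBD replicate 2 (0.037) of 4 h or LPS replicate 2 of 24 h (0.027), and Irf8 without CBD replicate 2 of 24 h (0.035). With the replicate block 6 of 8 were called (43.5% of all tested genes), adding Irf2 (0.032), Irf7 (0.046), Irf8 (0.021) and Irf9 (0.00033).

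Of the interferon-stimulated genes, 21 of 23 were higher with CBD at 24 h than with LPS alone and 0 lower, with a median of 1.15 and Rsad2 at 3.12 (adjusted p = 3.2e-05), Ifit1 at 1.97, Isg15 at 1.91 and Cmpk2 at 1.85. Over all tested genes 23.9% were higher and 24.8% lower, and the other lists lay nearer to those shares. The sensing list had 8 of 21 higher and 4 lower. The adaptor Ticam2 passed the filter on low values only in comparisons that include the CBD group at 24 h, where it was high. The sensing counts include it, but its call is no support and no fold change is given. Other sensing genes were Tlr3 (1.34), Tlr9 (0.82) and Ifih1 (0.76). In the signalling list 4 of 11 were higher, among them Usp18 (1.30) and Stat2 (1.02), and the 2 lower ones were Jak2 (-0.99) and Ifngr1 (-0.67). Of 11 partners 4 were higher and 4 lower. Batf, which pairs with Irf4 at composite elements, was at 1.43 and Trim21 at 0.63, whereas Tcf3 (-0.46), Ikzf1 (-0.44) and Spi1 (-0.38) were lower. The Irf1 target list split, with 3 of 14 higher, among them Cd274 (1.14) and Casp1 (0.98), and 2 lower, Nos2 (-1.25) and Ptgs2 (-0.73).

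Against their own vehicles, the drug groups with LPS gave the following calls. With MMF at 4 h 1 of 8 members was called (8.22% of all tested genes), Irf9 higher at 0.94 (SE 0.19, adjusted p = 0.015). It was lost without MMF replicate 2 (0.056) or 3 (0.067) or DMSO replicate 6 (0.06), and Irf1 was gained without MMF replicate 1 (0.033) and both Irf1 (0.032) and Irf7 (0.013) without DMSO replicate 5. With CBD at 4 h 3 of 8 were called (13.6%), Irf9 at 1.15 (SE 0.21, adjusted p = 0.009), Irf1 at 0.75 (SE 0.20, adjusted p = 0.042) and Irf8 at 0.31 (SE 0.07, adjusted p = 0.018). The Irf1 call was lost without CBD replicate 2 (0.094) or 3 (0.13) or EtOH replicate 4 (0.14) or 6 (0.14), and the Irf8 call without CBD replicate 1 (0.059) or 3 (0.06) or EtOH replicate 6 (0.067), while Irf7 was gained without EtOH replicate 5 (0.0044).

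At 24 h, LPS with DMF gave 4 of 8 members called against DMSO (40.2% of all tested genes), Irf7 at 1.12 (SE 0.21, adjusted p = 0.002), Irf9 at 0.70 (SE 0.11, adjusted p = 0.00062), Irf5 at 0.45 (SE 0.11, adjusted p = 0.007) and Irf8 at 0.25 (SE 0.07, adjusted p = 0.02). The Irf8 call was lost without DMF replicate 1 (0.053) or 3 (0.052) or DMSO replicate 4 (0.072), and Irf1 was gained without DMF replicate 1 (0.027) or DMSO replicate 5 (0.045). LPS with MMF gave 5 of 8 (22.4%): Irf7 at 1.06, Irf4 at 0.96, Irf9 at 0.52, Irf8 at 0.39 and Irf5 at 0.37, with adjusted p of 0.005, 0.036, 0.0034, 0.015 and 0.049. The calls of Irf4 and Irf5 were both lost, leaving 3, without any of MMF replicates 1, 2 or 3 or DMSO replicates 4 or 5 (adjusted p from 0.068 to 0.12). LPS with CBD gave 4 of 8 against EtOH (50.5%), with Irf4 at 2.05 (SE 0.28, adjusted p = 0.00023), Irf7 at 1.84 (SE 0.23, adjusted p = 0.00011) and Irf9 at 1.06 (SE 0.12, adjusted p = 6.4e-05) higher and Irf5 lower as given above. Irf1 was gained without CBD replicate 3 (0.028) and Irf2, lower, without CBD replicate 2 (0.02).

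The vehicles themselves did not separate the family with limma. Between DMSO and EtOH 0 of 8 members were called at 4 h (0% of all tested genes) and 0 of 8 at 24 h (0.00854%), with 1 member at an unadjusted p under 0.05 at each time and 0 by edgeR and DESeq2. At 24 h that member was Irf8, at 1139, 1287 and 1328 with DMSO and 1333, 1559.6 and 1831 with EtOH (-0.33, SE 0.11, adjusted p = 0.997). The replicate block called it (adjusted p = 0.046), which made 1 of 8 against 0.171% of all tested genes.

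Over time, Irf8 was the member called in each of the DMSO, EtOH and LPS groups. In DMSO Irf8 went from 618, 648 and 715 at 4 h to 1139, 1287 and 1328 at 24 h (0.90, SE 0.09, adjusted p = 3.3e-05), in EtOH from 660.2, 598 and 629 to 1333, 1559.6 and 1831 (1.29, SE 0.11, adjusted p = 1.2e-05) and with LPS from 805, 684 and 728 to 1728, 1877 and 1719.8 (1.26, SE 0.09, adjusted p = 3e-05). The 24 h libraries were above the 4 h libraries in each of these groups. Time in culture, time in low serum and time under treatment cannot be told apart here. In all, 2 of 8 members were called in DMSO (51.6% of all tested genes), 1 of 8 in EtOH (58.6%) and 3 of 8 with LPS (48.9%). Beside Irf8 these were Irf5 in DMSO (0.33, SE 0.12, adjusted p = 0.033) and, with LPS, Irf7 (0.85, SE 0.30, adjusted p = 0.036) and Irf9, which was lower at 24 h (-0.37, SE 0.13, adjusted p = 0.037). With LPS the replicate block added Irf5 (0.015), making 4 of 8 (52.2% of all tested genes).

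The calls over time other than Irf8 depended on single libraries. Irf5 in DMSO was lost without DMSO replicate 5 (0.1) or 6 (0.14) of 24 h or 4 (0.097) or 6 (0.1) of 4 h. Without DMSO replicate 5 of 4 h the count in DMSO was 5, with Irf1 (0.013), Irf7 (4.9e-05) and Irf9 (0.022) added. Without EtOH replicate 5 of 4 h it was 5 in EtOH, with Irf2 (0.048), Irf5 (0.024), Irf7 (3.7e-05) and Irf9 (0.003) added, and without EtOH replicate 4 of 24 h Irf5 was added (0.025). With LPS, Irf7 was lost without LPS replicate 2 (0.13) or 3 (0.09) of 24 h or 1 (0.11) or 3 (0.11) of 4 h. Irf9 was lost without LPS replicate 1 (0.12) or 3 (0.12) of 24 h or 2 (0.094) or 3 (0.072) of 4 h. Irf5 was gained with LPS without LPS replicate 1 of 24 h (0.042) or replicate 2 of 4 h (0.01), the latter also bringing Irf3 to 0.0499.

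A second axis of variation ran through the replicates. Among the 8 LPS-containing groups, replicate 2 had the highest value in 8 for Irf1, Irf5, Irf7, Irf9 and Stat2 and in 7 for Irf2. It was the highest in 4 groups for Irf3 and in 3 for Irf8. With LPS alone at 4 h, replicate 2 had 4697 normalised Irf7 counts beside 1715 and 2202. In the vehicle groups replicate 5 was the highest for Irf7 at 4 h, with 2653 counts in DMSO beside 519.6 and 880.3, but not at 24 h. For Irf1 and Irf3, replicate 5 was the highest in all 4 vehicle groups. Over the 36 libraries after removal of group means, Pearson's r was 0.95 between Irf7 and Irf9, 0.82 between Irf1 and Irf9, 0.83 between Irf1 and Irf2, 0.057 between Irf8 and Irf9 and 0.25 between Irf3 and Irf9, as a description of libraries that share treatments and may share experiments. What the numbers mark is not given in the labels, and a cause of this spread was not tested.

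**Figure D4:**
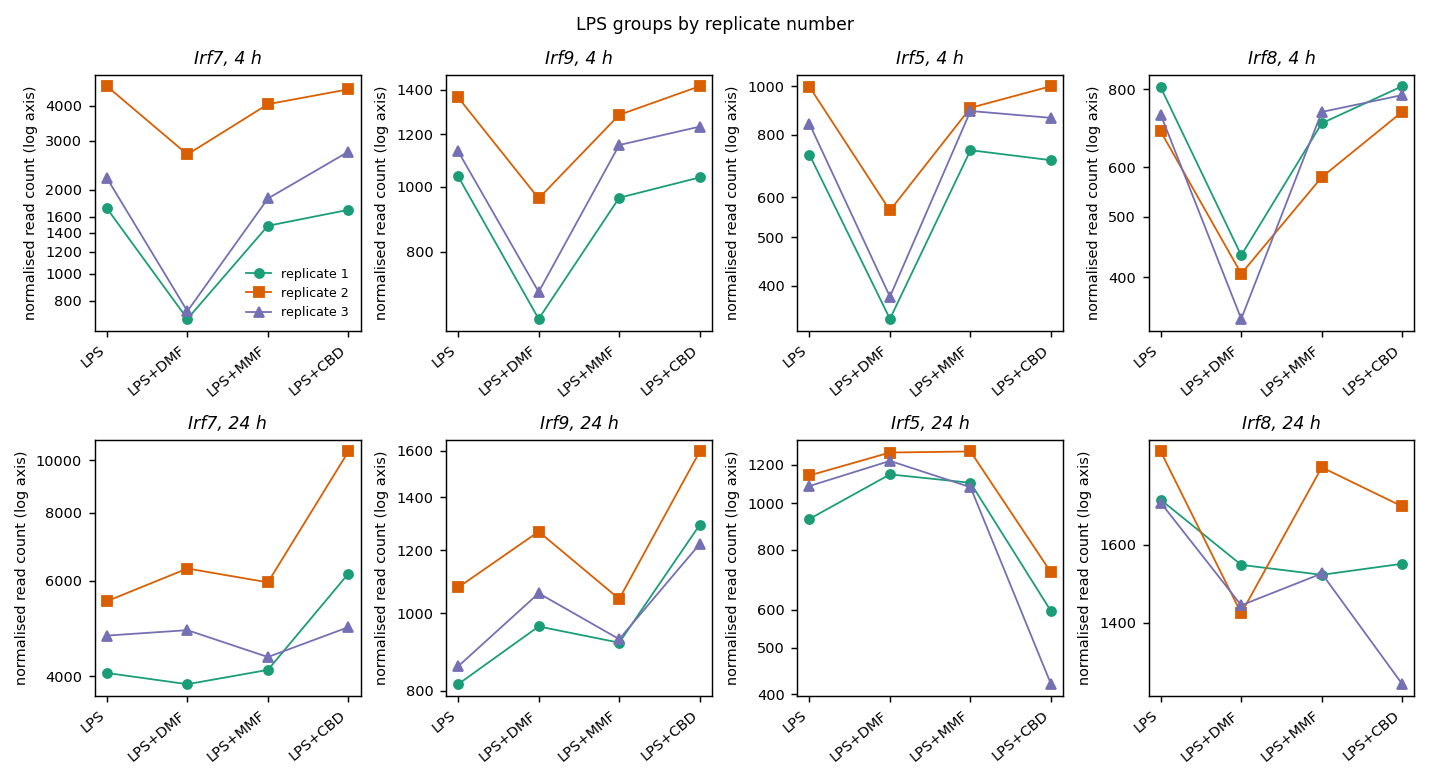
Normalised read count (log axis) of Irf7, Irf9, Irf5 and Irf8 in the groups with LPS at 4 h (upper row) and 24 h (lower row), with lines joining libraries of the same replicate number. Replicate 2 ran above the others in Irf7, Irf9 and Irf5 and the DMF point was the lowest of each line at 4 h, whereas the lines of Irf8 crossed.

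The genes whose log2 levels were most like those of each member over the 36 libraries, among 10095 genes with a mean of at least 50 normalised counts, are given for 7 members. Irf7 was most like Oas3 (Pearson's r 0.97), H2-T23 (0.97) and Ifi202b (0.96). Irf9 was most like Oas1b (0.98), Xaf1 (0.97) and Stat2 (0.97). Interferon-stimulated genes among these include Oas3, Oas1b and Xaf1. Irf1 was most like Trafd1 (0.91), Parp9 (0.90) and Dtx3l (0.89). Irf5 was most like Dusp6 (0.95), a phosphatase of ERK, Ptpre (0.92) and Themis2 (0.91), and Irf2 most like 9930111J21Rik2 (0.91), Rin2 (0.90) and Zfp36l1 (0.89). Among the genes most like Irf8 were Sema4c (0.95) and Nol4l (0.95). Irf3, the member that varied least, had lower values, with F11r (0.73), Nherf1 (0.73) and Coro1a (0.73). These correlations describe libraries that share treatments and times.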

How the data were processed

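RNA from 36 BV-2 libraries was sequenced by the authors as poly(A) paired-end libraries. Per the labels and methods, reads were trimmed (Cutadapt 4.4, Trimmomatic 0.39), checked with FastQC 0.12.1, aligned with HISAT2 2.2.1 to GRCm39 with Ensembl annotation 110, counted with HTSeq 2.0.3 and normalised with DESeq2 1.40.2 in R 4.3.1. The deposited tables, 30 in all with 1 for each pair of groups, hold a normalised count signal per gene and library, that is, counts divided by the size factor of that table. Their columns of the authors' own comparisons (fold changes and p-values) were not used. Dividing by the step between low values gave whole reads for 142 of 180 columns of libraries, with 100% of 2113708 values within 0.01 read of a whole number, and the other 38 columns had a factor near 1. Of 1799974 values compared between tables, 0 differed.

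Each comparison was fitted with limma 3.58.1 (R 4.3.3) on log2(normalised count + 1) of its own 6 libraries, for genes with at least 10 normalised counts in at least 3 libraries, and adjusted by Benjamini-Hochberg over all tested genes. Differences between times used 12 libraries scaled together. Alternatives were a pseudocount of 5, no filter, edgeR 4.0.16 and DESeq2 1.42.0 on the recovered reads, all 36 libraries in 1 fit, a replicate block and leaving out each library. The methods speak of independent experiments, but the labels do not tie a library to one, and p-values measure the spread between these libraries.

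The replicate numbers were taken to pair samples where the deviations from the group means correlated above 0.1 in every pair. They did for DMF against LPS at 4 h (0.17 to 0.46) and 24 h (0.22 to 0.51), CBD against LPS at 4 h (0.24 to 0.66) and 24 h (0.13 to 0.52), MMF against LPS at 24 h (0.33 to 0.68), DMF against MMF at 24 h (0.20 to 0.58), DMSO against EtOH at 4 h (0.30 to 0.75) and 24 h (0.18 to 0.47) and LPS over time (0.15 to 0.29). In DMF against LPS at 4 h, CBD against LPS at 24 h, DMF against MMF at 24 h and DMSO against EtOH at 24 h, not every sample correlated best with its own number. The pairing comes from these correlations, since the labels do not say what a number marks.

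The 8 members and the gene lists were chosen with earlier results of these data known. Beside the members, the text names up to 4 called genes per list with the largest absolute log2 fold change, for LPS against DMSO and DMF against LPS at both times and CBD against LPS at 24 h, then Ifnb1, Stat2 and Spi1, and the 3 genes most correlated with each member that had a mean of at least 50. Some genes that this rule or the marker lists name are not reported here. Promoter letters were read from the GRCm39 genome at GENCODE canonical transcript starts.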

Additional observations from a re-analysis of the deposited data

Results flagged for a closer look

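The DMF effect relative to LPS alone differed between 24 h and 4 h, by a test of the difference itself, in 5 members. The difference on the log2 scale was 1.13 for Irf1, 0.82 for Irf2, 1.23 for Irf5, 0.64 for Irf8 and 0.90 for Irf9, each higher at 24 h. The CBD effect relative to LPS alone differed between the times for Irf4 by 1.05 and for Irf5 by -0.89. The 4 h and 24 h libraries are separate samples, and a cause of these differences was not tested.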

How the results depend on the processing

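No called member changed direction under any alternative run. Of 2832 values of single members under alternatives, 2623 kept their call or, uncalled, moved by at most their SE, 92 lost a call, 70 gained one and 47 stayed uncalled but moved by more than their SE; a pseudocount of 5 changed none of 224. The number of called members moved by over 1.5 times as follows. DESeq2 gave 2 for LPS against DMSO, LPS against EtOH and MMF against DMSO at 4 h, and edgeR gave 2 for EtOH over time. With all 36 libraries in 1 fit there were 2 for LPS against DMSO at 4 h, 1 for it at 24 h, 0 for LPS against EtOH at 24 h, 0 for DMF against LPS at 24 h, 2 for MMF against DMSO at 4 h, 2 for DMF and 2 for MMF against DMSO at 24 h, and 1 for DMSO over time. With no filter the CBD difference between times held for 1 member, as Irf4 was lost (0.089). The cause was not tested. With the replicate block there were 4 called members for DMF against LPS at 24 h, 7 for CBD against LPS at 24 h, 1 for DMF against MMF at 24 h, 1 for DMSO against EtOH at 24 h and 6 for the CBD difference between times, all given above. Where the numbers were not found to pair the samples, the block gave 6 of 8 for DMF against MMF at 4 h. Irf7 and Irf9 were added there. It gave 4 of 8 for DMSO and 3 of 8 for EtOH over time, and 0 for MMF against LPS at 4 h. Of all tested genes the block called 15.3%, 56.5%, 60.9% and 1.57%, in that order. The lowest same-number correlations were 0.042, 0.0079, 0.037 and 0.081, and not every sample correlated best with its own number. The block changed no other call of a member beside those given here and above. No paired analysis was run in any comparison of an LPS group with a vehicle. The LPS groups carry numbers 1 to 3 and the vehicle groups 4 to 6, and no label links them. These fits leave out any such link, although replicate 2 or 5 was the highest Irf7 value of each group at 4 h. Leaving out 1 library in turn gave 0 to 2 called members for LPS against DMSO at 4 h, 0 to 2 for LPS against EtOH at 4 h, 2 to 3 and 1 to 2 for these at 24 h, 2 to 6 for DMF against LPS at 4 h and 0 to 4 at 24 h, 3 to 5 for CBD against LPS at 24 h, 1 to 6 for DMF against MMF at 4 h, 2 to 3 for DMF, 0 to 3 for MMF and 1 to 4 for CBD against vehicle at 4 h, 3 to 5 for DMF, 3 to 5 for MMF and 4 to 5 for CBD against vehicle at 24 h, 1 to 5 for DMSO, 1 to 5 for EtOH and 1 to 4 for LPS over time, and 0 to 1, 0 to 1, 5 to 6 and 1 to 3 for the differences between times of LPS against DMSO, LPS against EtOH, DMF and CBD. Depth limits Irf4, with 11 to 76 reads per library, and Ifnb1, with 0 to 16.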
